A study of Homo sapiens with 18 samples.

Results

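The circadian clock genes PER1, PER2, PER3, CRY1, CRY2, NR1D1, NR1D2, DBP, TEF and ARNTL were followed in MCF10A cells, an established line of non-malignant breast epithelial cells, cultured in 3D or in 2D. These 10 genes were taken by name from the 60662 genes of the deposited count table, and all 10 passed the filter on low counts. For 9 of them the table carries the symbol, with ARNTL, also called BMAL1, written as ARNTL. PER1 was found by its gene ID, ENSG00000179094.16, because the table writes AC129492.1 as the symbol of that row.

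The 6 groups were 3D culture at timepoints 1, 2 and 3 and 2D culture at the same timepoints, each with 3 libraries. In both cultures, cells were plated sparsely on compliant polyacrylamide gels coated with Matrigel, a basement membrane extract, and the medium was changed once cells had attached. In 3D the new medium held Matrigel, which gels around the cells, and in 2D it did not. Both media were the growth medium, with horse serum, EGF, insulin, cholera toxin and hydrocortisone. The protocol gives harvests at 3, 12 and 21 h after plating, which were matched to timepoints 1, 2 and 3 by their order. All libraries come from 1 cell line, and the 3 timepoints give neither a period nor a phase. The labels tie each replicate number to a date, the same in all groups, but state neither what was done on it nor that the libraries of a group came from separate cultures, so the p-values measure only the spread between these samples. In bulk RNA, fewer cells that express a gene and less RNA of it per cell cannot be told apart.

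The mammalian clock is a feedback loop of transcription. ARNTL pairs with CLOCK or NPAS2 and binds E-boxes in the promoters of the PER and CRY genes, of NR1D1 and NR1D2, and of DBP and TEF. PER and CRY proteins then inhibit that pair, NR1D1 and NR1D2 (REV-ERB alpha and beta) repress ARNTL through ROR elements, and DBP and TEF activate genes through D-boxes. In cultured cells, serum, glucocorticoids and agents that raise cAMP, such as cholera toxin, are known to induce PER1 and to set the clocks of the cells to a common phase.

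The promoters of 4 members are shown because they hold letters of the elements through which the loop is known to act. Windows of 250 bases before to 50 after each start site were taken from RefSeq (GRCh38.p14), which holds 15 windows for the 10 genes. Capitals mark the motifs found on either strand: the E-box CACGTG, the E-prime box CACGTT, the D-box TTANGTAA and the ROR element RORE.
PER2, chr2:238288561-238288860, minus strand: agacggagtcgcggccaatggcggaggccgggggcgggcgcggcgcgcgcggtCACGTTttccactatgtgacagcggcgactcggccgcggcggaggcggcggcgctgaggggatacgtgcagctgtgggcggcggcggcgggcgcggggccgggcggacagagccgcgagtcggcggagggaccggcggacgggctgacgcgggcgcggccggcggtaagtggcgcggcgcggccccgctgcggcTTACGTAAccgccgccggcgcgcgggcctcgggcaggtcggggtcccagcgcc
NR1D1, chr17:40100540-40100839, minus strand: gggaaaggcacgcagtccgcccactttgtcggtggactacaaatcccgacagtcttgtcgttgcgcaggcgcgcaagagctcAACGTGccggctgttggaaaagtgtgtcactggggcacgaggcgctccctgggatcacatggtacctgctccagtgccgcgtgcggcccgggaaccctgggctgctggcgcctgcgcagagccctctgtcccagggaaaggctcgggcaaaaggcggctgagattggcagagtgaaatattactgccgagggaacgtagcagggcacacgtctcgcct
NR1D2 second window, chr3:23945871-23946170, plus strand: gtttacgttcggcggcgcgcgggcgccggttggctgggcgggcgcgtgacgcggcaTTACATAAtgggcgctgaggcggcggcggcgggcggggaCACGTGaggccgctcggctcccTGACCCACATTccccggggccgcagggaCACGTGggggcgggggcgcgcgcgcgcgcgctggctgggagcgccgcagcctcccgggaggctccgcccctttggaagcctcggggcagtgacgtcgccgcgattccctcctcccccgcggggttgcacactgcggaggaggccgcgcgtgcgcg
ARNTL first window, chr11:13277540-13277839, plus strand: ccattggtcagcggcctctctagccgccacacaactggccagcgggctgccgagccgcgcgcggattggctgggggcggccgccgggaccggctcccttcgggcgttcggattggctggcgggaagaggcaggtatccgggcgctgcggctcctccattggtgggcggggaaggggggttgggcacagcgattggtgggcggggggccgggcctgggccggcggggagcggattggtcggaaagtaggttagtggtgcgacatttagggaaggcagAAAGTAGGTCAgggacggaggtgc
In PER2 the capitals are an E-prime box at -197 and a D-box at -3 from the start site. In NR1D1 they are an E-prime box at -168. In NR1D2 they are a D-box at -194, E-boxes at -155 and -105 and a RORE at -133. In ARNTL the RORE lies at 27 after the start site. No motif in these 4 windows overlapped another.

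Over the 15 windows, the E-box was found in 4 (PER1, NR1D2 and both windows of TEF), and in 7.26% of all 35116 windows. The E-prime box was found in 4 windows (PER2, CRY1, CRY2 and NR1D1), and in 5.34% of all. The D-box was found in 3 windows (PER2, PER3 and NR1D2), and in 2.18% of all. The RORE was found in 2 windows (NR1D2 and ARNTL), and in 0.316% of all. The cAMP response element TGACGTCA was found in 0 of the 15 windows and in 1.85% of all, and its short form TGACG in 6 windows of PER2, CRY1, CRY2 and NR1D2 and in 24.6% of all. The full palindrome of the glucocorticoid response element was found in none of the 15 and in 0.00285% of all. It is too rare for its absence here to tell anything about these genes. A match is a run of letters, and its absence concerns these windows alone.

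The library of 2D timepoint 3 replicate 1 was not fitted, since of the deposited tables its labels name the raw counts and no other. Levels are CPM, counts scaled to library totals adjusted by TMM over the 17 fitted libraries. Statements on all libraries of a group concern these 17, and the library left out is described further below. The deposited counts sum to 49811449 to 93894215 per library, which is 4.73 to 5.73 times the library totals in the file headers, so CPM was not compared between genes. That ratio lay between 5.54 and 5.73 for 3D libraries of timepoint 2 and between 4.96 and 5.26 for 2D libraries. KRT5, KRT14, KRT17, KRT6A, TP63, CDH1, EPCAM and LAMB3, markers of mammary epithelium, were present in every fitted library. CD3E, COL3A1 and PGR were at 0 and PTPRC had at most 2 counts in every fitted library, while DCN was present at 115 to 264 CPM. Counts of mitochondrial genes made up 0.364 to 0.482% of a library in 3D and 0.908 to 1.18% in 2D at timepoint 2, and 0.398 to 0.533% in 3D and 0.589 to 0.684% in 2D at timepoint 3. CD14, of the leukocyte list, was at 5.53 to 7.92 CPM in 3D and at 10.4 to 19.4 CPM in 2D over timepoints 2 and 3. The summed luminal markers ESR1, GATA3 and FOXA1 were at 8.43 to 11.7 CPM in 3D and at 12.3 to 14.8 CPM in 2D over those timepoints, and the endothelial PECAM1 and CDH5 at 0.547 to 1.35 CPM in 3D and at 1.46 to 1.87 CPM in 2D. The summed fibroblast markers overlapped between cultures. The part of these measures in the clock gene differences was not tested.

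ARNTL (chr11:13277831-13387266, plus strand) encodes the activator of the loop. In 3D, ARNTL stood at 111, 107 and 146 CPM at timepoint 1, at 87.3, 62.2 and 71.8 CPM at timepoint 2 and at 92.1, 65.8 and 80.7 CPM at timepoint 3. 2D libraries lay at 104, 96.6 and 141 CPM at timepoint 1, at 56.3, 46.1 and 65.2 CPM at timepoint 2 and at 49.9 and 69.1 CPM at timepoint 3. All libraries of timepoints 2 and 3 lay below all libraries of timepoint 1, in both cultures. 3D and 2D overlapped at each timepoint, but within each replicate number ARNTL was higher in 3D at all 3 timepoints.

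NR1D1 (chr17:40092793-40100589, minus strand) encodes a repressor of ARNTL. In 3D culture, NR1D1 stood at 1.57, 1.29 and 1.35 CPM at timepoint 1, at 2.40, 2.75 and 2.32 CPM at timepoint 2 and at 1.70, 2.90 and 2.45 CPM at timepoint 3. In 2D it was at 1.78, 1.57 and 2.03 CPM at timepoint 1, at 3.06, 3.83 and 3.10 CPM at timepoint 2 and at 5.00 and 3.79 CPM at timepoint 3. All fitted libraries of timepoints 2 and 3 lay above those of timepoint 1 in both cultures. At timepoints 2 and 3 all 3D libraries lay below all fitted 2D libraries. NR1D2 (chr3:23945286-23980617, plus strand) encodes its paralog. In 3D, NR1D2 stood at 9.93, 10.4 and 6.19 CPM at timepoint 1, at 3.26, 3.71 and 2.76 CPM at timepoint 2 and at 3.49, 2.36 and 2.83 CPM at timepoint 3. Levels in 2D lay at 8.08, 12.5 and 6.30 CPM at timepoint 1, at 6.54, 6.12 and 7.64 CPM at timepoint 2 and at 5.79 and 4.83 CPM at timepoint 3. In 3D all libraries of timepoints 2 and 3 lay below those of timepoint 1, and at these timepoints below all fitted 2D libraries. In 3D, then, the later libraries lay above timepoint 1 for NR1D1 and below it for NR1D2.

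PER1 (chr17:8140472-8152404, minus strand) encodes an inhibitor of ARNTL and its partner and is itself an immediate early gene. In 3D, PER1 stood at 75.8, 109 and 69.0 CPM at timepoint 1, at 80.2, 152 and 104 CPM at timepoint 2 and at 81.1, 131 and 89.5 CPM at timepoint 3. In 2D it was at 79.7, 94.0 and 76.9 CPM at timepoint 1, at 127, 195 and 127 CPM at timepoint 2 and at 228 and 177 CPM at timepoint 3. In 2D every later library lay above timepoint 1, while in 3D the timepoints overlapped. PER2 (chr2:238244044-238288610, minus strand) encodes the second inhibitor of this family. Across 3D libraries, PER2 stood at 5.09, 6.81 and 5.06 CPM at timepoint 1, at 2.53, 4.20 and 3.41 CPM at timepoint 2 and at 3.06, 4.01 and 3.96 CPM at timepoint 3. Levels in 2D lay at 4.27, 6.84 and 5.50 CPM at timepoint 1, at 5.15, 8.12 and 5.58 CPM at timepoint 2 and at 7.37 and 7.31 CPM at timepoint 3. The 3D libraries of timepoints 2 and 3 lay below those of timepoint 1, and below all fitted 2D libraries of their own timepoint. PER3 (chr1:7784703-7845177, plus strand) encodes the third. In 3D culture, PER3 stood at 0.378, 0.400 and 0.561 CPM at timepoint 1, at 0.463, 1.23 and 0.853 CPM at timepoint 2 and at 0.891, 0.632 and 0.836 CPM at timepoint 3. The 2D libraries were at 0.736, 0.859 and 1.01 CPM at timepoint 1, at 1.05, 0.822 and 1.05 CPM at timepoint 2 and at 1.27 and 0.747 CPM at timepoint 3. At timepoint 1 all 3D libraries lay below all 2D libraries, and at timepoints 2 and 3 the cultures overlapped.

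CRY1 (chr12:106991364-107093549, minus strand) encodes a cryptochrome, a repressor that acts with PER proteins. In 3D, CRY1 stood at 8.54, 7.40 and 6.24 CPM at timepoint 1, at 3.80, 3.96 and 3.49 CPM at timepoint 2 and at 5.71, 5.08 and 4.68 CPM at timepoint 3. In 2D culture the gene was at 6.68, 6.55 and 6.62 CPM at timepoint 1, at 4.65, 3.32 and 2.85 CPM at timepoint 2 and at 5.17 and 5.62 CPM at timepoint 3. Its lowest group was timepoint 2 in both cultures, with all libraries of timepoint 2 below those of timepoints 1 and 3, and the cultures overlapped throughout. CRY2 (chr11:45847118-45881233, plus strand) encodes the other cryptochrome. Across 3D libraries, CRY2 stood at 4.51, 5.91 and 9.12 CPM at timepoint 1, at 4.20, 5.66 and 5.20 CPM at timepoint 2 and at 4.39, 6.12 and 5.69 CPM at timepoint 3. 2D libraries lay at 5.14, 7.05 and 7.29 CPM at timepoint 1, at 4.74, 7.51 and 5.53 CPM at timepoint 2 and at 7.37 and 6.22 CPM at timepoint 3. Its timepoints overlapped in both cultures, and the cultures were apart at timepoint 3 alone, where 3D was lower.

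DBP (chr19:48630030-48637438, minus strand) encodes an output factor of the loop that binds D-boxes. Across 3D libraries, DBP stood at 1.71, 1.74 and 2.05 CPM at timepoint 1, at 1.57, 2.85 and 2.38 CPM at timepoint 2 and at 1.94, 2.45 and 3.15 CPM at timepoint 3. The 2D libraries were at 1.69, 1.09 and 2.03 CPM at timepoint 1, at 2.88, 4.23 and 2.67 CPM at timepoint 2 and at 4.94 and 3.80 CPM at timepoint 3. In 2D all later libraries lay above timepoint 1, in 3D they overlapped with it, and at timepoint 3 those of 3D lay below those of 2D. TEF (chr22:41381942-41399326, plus strand) encodes a related factor. In 3D culture, TEF stood at 1.44, 1.46 and 1.42 CPM at timepoint 1, at 1.55, 3.38 and 1.56 CPM at timepoint 2 and at 1.74, 2.35 and 2.31 CPM at timepoint 3. In 2D culture the gene was at 1.28, 1.21 and 1.35 CPM at timepoint 1, at 3.45, 5.04 and 2.75 CPM at timepoint 2 and at 4.29 and 3.50 CPM at timepoint 3. Its later libraries lay above timepoint 1 in both cultures. Those of 3D lay above those of 2D at timepoint 1 and below them at timepoint 3.

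**Figure D1:**
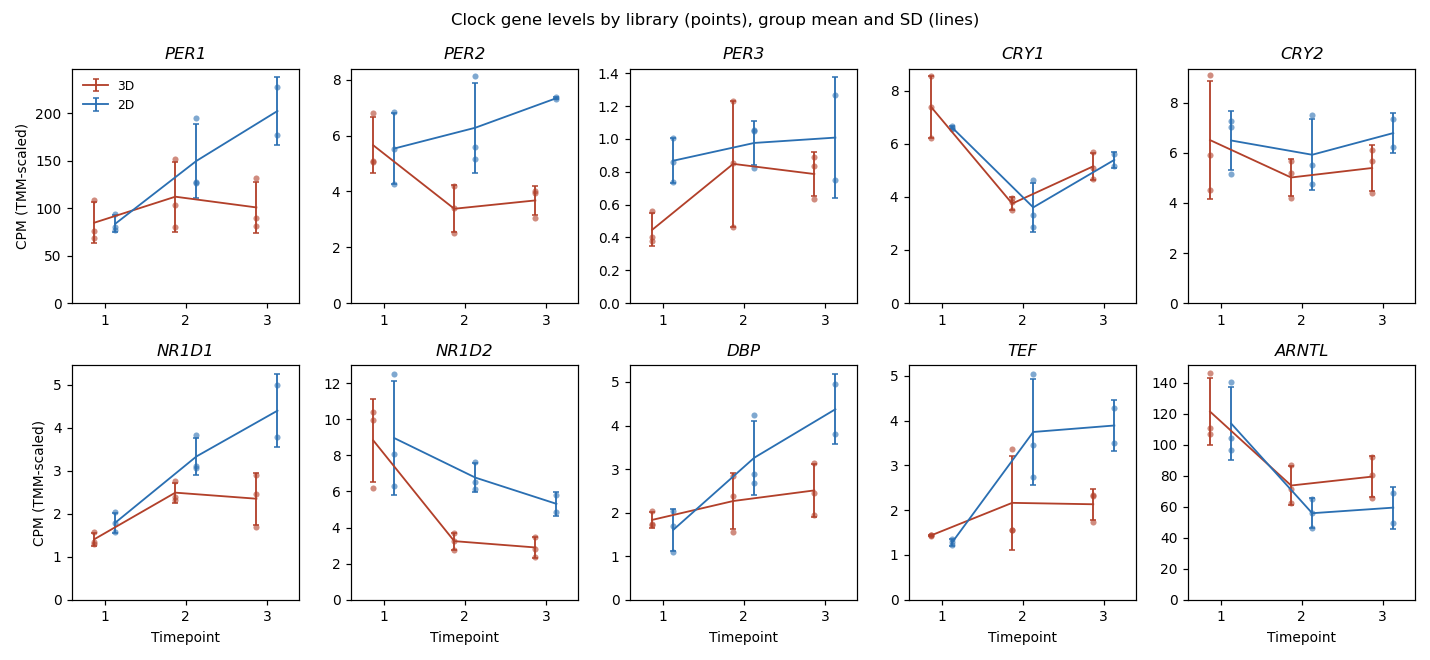
CPM (TMM-scaled, vertical axis from 0) of the 10 clock genes at timepoints 1, 2 and 3 (horizontal axis). Points are libraries, and lines join group means with SD bars, for 3D (red, n = 3) and 2D (blue, n = 3, and 2 at timepoint 3). At timepoints 2 and 3 the means of PER1, PER2, NR1D1, NR1D2, DBP and TEF are lower in 3D than in 2D and that of ARNTL is higher.

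The order of the 6 groups by mean level put 2D timepoint 3 on top for PER1, PER2, PER3, CRY2, NR1D1, DBP and TEF, and 3D timepoint 1 on top for CRY1 and ARNTL. For each of the 10 genes the top group overlapped with the next. The top groups of NR1D2 were 3D timepoint 1, at 8.83 ± 2.30 CPM (SD, n = 3), and 2D timepoint 1, at 8.95 ± 3.18 CPM (SD, n = 3). Its lowest group was 3D timepoint 3, at 2.90 ± 0.569 CPM (SD, n = 3).

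In 3D culture, NR1D2, CRY1, ARNTL and PER2 were lower and NR1D1 was higher at timepoint 2 against timepoint 1. A change was called at an adjusted p under 0.05 in edgeR's quasi-likelihood test, adjusted by Benjamini-Hochberg over all 18592 genes tested. These 5 of 10 calls stand beside 15.1% of all genes tested. NR1D2 changed by -1.45 ± 0.26 (log2, SE; adjusted p = 0.00190 in edgeR), to 0.367 of its timepoint 1 level. CRY1 changed by -0.98 ± 0.19 (adjusted p = 0.00328 in edgeR). ARNTL changed by -0.72 ± 0.21 (adjusted p = 0.0307 in edgeR) and PER2 by -0.75 ± 0.24 (adjusted p = 0.0490 in edgeR). NR1D1 was 1.77 times as high, at 0.82 ± 0.22 (adjusted p = 0.0221 in edgeR). PER1, at 0.40, was called only with the replicate number as a block (adjusted p = 0.320 without and 0.0281 with it), which called 6 beside 28.4% of all genes. The log2 differences of PER3, CRY2, DBP and TEF, between -0.38 and 0.92, were not called.

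At timepoint 3 against timepoint 1 in 3D, 2 of the 10 were called beside 11% of all genes tested. NR1D2 was lower, at -1.61 ± 0.26 (log2, SE; adjusted p = 8.32e-04 in edgeR), and NR1D1 higher, at 0.74 ± 0.22 (adjusted p = 0.0427 in edgeR). With the block the count was 5, beside 23.9% of all genes. The added calls were ARNTL at -0.61 without the block (adjusted p = 0.0708 without and 0.00444 with it), PER2 at -0.62 (adjusted p = 0.114 and 0.00638) and CRY1 at -0.52 (adjusted p = 0.0895 and 0.0201). Leaving out 1 library left 1 call without replicate 1 or 2 of timepoint 1 or replicate 2 or 3 of timepoint 3. In the comparison of timepoint 2, 3 calls were left without replicate 1 or 2 of timepoint 1 or replicate 2 or 3 of timepoint 2. NR1D2 was called in every one of these fits at both timepoints, and CRY1 in every one at timepoint 2. Over all fits without 1 library, 6.11 to 14.8% of all genes were called at timepoint 3 and 6.76 to 19.4% at timepoint 2.

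In 2D culture, TEF, NR1D1 and DBP were higher and ARNTL and CRY1 lower at timepoint 2 against timepoint 1, 5 of 10 beside 5.87% of all genes tested. TEF was 2.92 times as high, at 1.55 ± 0.30 (log2, SE; adjusted p = 0.00497 in edgeR). DBP was 2.03 times as high, at 1.02 ± 0.29 (adjusted p = 0.0466 in edgeR), and NR1D1 1.86 times, at 0.89 ± 0.22 (adjusted p = 0.0238 in edgeR). ARNTL changed by -1.03 ± 0.21 (adjusted p = 0.00729 in edgeR) and CRY1 by -0.87 ± 0.19 (adjusted p = 0.0112 in edgeR). PER1, at 0.84, was called only with the block (adjusted p = 0.0717 without and 5.36e-04 with it), which called 6 beside 13.7% of all genes. The count of calls was 3 without replicate 1 or 2 of timepoint 1 or replicate 1 of timepoint 2, and 2 without replicate 2 or 3 of timepoint 2. TEF and ARNTL were called in each of these fits. Over all fits without 1 library, 3.36 to 4.43% of all genes were called.

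At timepoint 3 against timepoint 1 in 2D, NR1D1, TEF, DBP and PER1 were higher and ARNTL lower, 5 of 10 beside 4.86% of all genes tested. TEF was 3.03 times as high, at 1.60 ± 0.32 (log2, SE; adjusted p = 0.00931 in edgeR). DBP was 2.72 times as high (adjusted p = 0.0143 in edgeR), at 1.44 ± 0.31, and NR1D1 2.45 times (adjusted p = 0.00568 in edgeR), at 1.29 ± 0.24. PER1 was 2.42 times as high, at 1.28 ± 0.29 (adjusted p = 0.0166 in edgeR). ARNTL changed by -0.94 ± 0.24 (adjusted p = 0.0321 in edgeR). With the block the same 5 genes were called, beside 10.5% of all genes. These calls rest on 2 libraries at timepoint 3. Every fit without 1 library also called a smaller share of all genes than the full fit. Without replicate 2 of timepoint 3 none of the 5 was left, without replicate 3 of it 2 were, and without replicate 1 of timepoint 1 3 were.

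The library of 2D timepoint 3 that was not fitted went against the other 2 for most of these genes. Scaled over all 18 libraries, it had 108 CPM of PER1, 3.53 of PER2, 1.79 of NR1D1, 3.42 of NR1D2, 1.41 of DBP, 1.86 of TEF and 78.6 of ARNTL. For these 7 genes its value lay outside the range of the 2 fitted libraries, on the side of the 3D libraries of timepoint 3. CRY2, at 3.64 CPM, lay below both groups, and PER3, at 1.53, and CRY1, at 6.30, lay above both. With this library, 3D libraries of timepoint 3 no longer all lay below those of 2D for PER1, PER2, CRY2, NR1D1, NR1D2, DBP and TEF. Nor did the 2D libraries of timepoint 3 all lie above timepoint 1 for NR1D1 and DBP. With the left-out library in the fit, 2 of the 10 genes, TEF and ARNTL, were called at timepoint 3 against timepoint 1 in 2D, beside 5.29% of all genes. In 3D against 2D at timepoint 3 the count without the block was 0, as in the fit without that library. The share of all genes called by that fit is not given here, so this count is not read further.

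Between timepoints 3 and 2, edgeR called 0 of the 10 genes in 3D and 0 in 2D, beside 0% of all genes tested in both. DESeq2 called 0 as well, beside 0.156% in 3D and 0.164% in 2D, and with the block edgeR called 0, beside 0% in 3D and 0.0377% in 2D. At an unadjusted p under 0.05 there was 1 in each culture, CRY1, which was higher at timepoint 3, by 0.46 ± 0.19 in 3D and 0.58 ± 0.21 in 2D (log2, SE). The share of all genes at this unadjusted threshold was not counted, here or below.

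**Figure D2:**
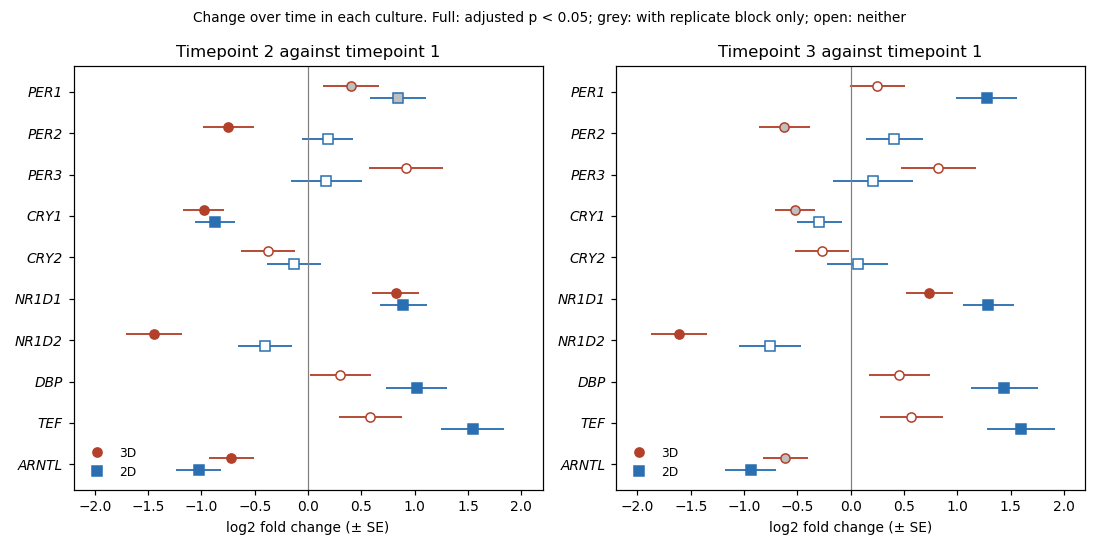
Log2 fold change (horizontal axis, bars are SE) of each clock gene (vertical axis) at timepoint 2 (left) and timepoint 3 (right) against timepoint 1, in 3D (circles) and 2D (squares). Full symbols passed an adjusted p of 0.05, grey ones only with the replicate block. NR1D1 lies right of 0 and ARNTL left of 0 in both cultures, while DBP and TEF lie further right in 2D and NR1D2 and PER2 further left in 3D.

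At timepoint 1 no clock gene was called between the cultures. In edgeR 0 of the 10 genes were called for 3D against 2D, beside 0% of all genes tested, and in DESeq2 also 0, beside 0%. PER3 alone had an unadjusted p under 0.05, at -0.96 ± 0.35 (log2, SE). Of the 10 estimates, 7 were above 0, with a median log2 difference of 0.03, against 0.00 over all genes tested.

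At timepoint 2, 8 of the 10 estimates were below 0 (lower in 3D), with a median log2 difference of -0.42 against -0.03 over all genes tested. No difference passed without the block in edgeR, beside 1.49% of all genes tested. At an unadjusted p under 0.05, where no share of all genes was counted, there were 3 (PER2, NR1D2 and TEF). DESeq2 called 2, PER2 and NR1D2, beside 8.91% of the genes it tested. With the replicate block, which compares libraries of the same number, 5 were called beside 15.9% of all genes tested. PER2 was lower in 3D, at -0.90 ± 0.14 (log2, SE; adjusted p = 0.00156 with the block in edgeR, 0.0680 without). NR1D2 was lower in 3D, at -1.09 ± 0.23 (adjusted p = 0.00869 with and 0.0521 without), TEF at -0.82 ± 0.24 (adjusted p = 0.0320 and 0.145) and PER1 at -0.43 ± 0.12 (adjusted p = 0.0287 and 0.378). ARNTL was higher in 3D, at 0.41 ± 0.13 (adjusted p = 0.0499 with and 0.292 without). In all 3 pairs of libraries with the same number, PER1, PER2, NR1D1, NR1D2, DBP, TEF and CRY2 were lower in 3D and ARNTL higher. The share of all genes with the same sign in all 3 pairs was not counted. At timepoint 1, where no clock gene was called, PER3 and NR1D1 were lower in 3D in all 3 pairs and DBP, TEF and ARNTL higher. In the authors' deposited table for this timepoint, PER2 stood at -0.96 (adjusted p = 0.0477) and NR1D2 at -1.11 (adjusted p = 0.0409), and no other of the 10 was under 0.05.

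**Figure D3:**
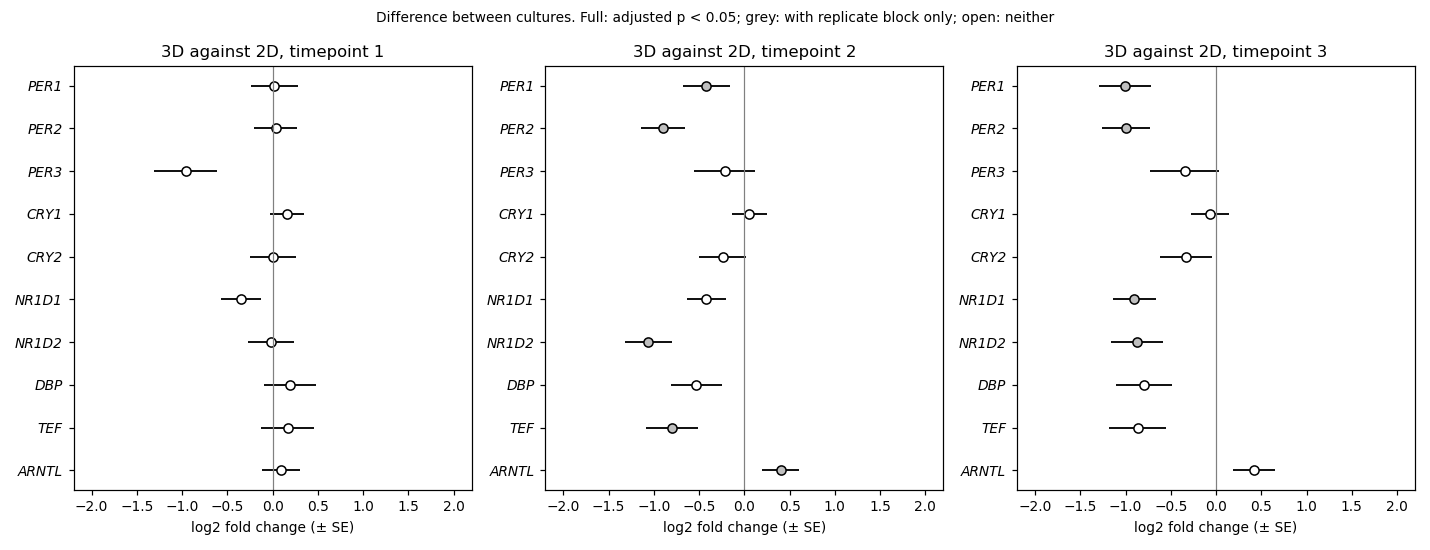
Log2 fold change of 3D against 2D (horizontal axis, bars are SE, fit without the block) for each clock gene (vertical axis) at timepoints 1, 2 and 3. Grey symbols passed an adjusted p of 0.05 only with the replicate block and open ones in neither fit. Nearly all genes lie around 0 at timepoint 1, and most lie left of 0 at timepoints 2 and 3, with ARNTL right of 0.

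At timepoint 3, 9 of the 10 estimates were below 0, with a median log2 difference of -0.83 against 0.02 over all genes tested. Again none passed without the block in edgeR, beside 1.5% of all genes tested. At an unadjusted p under 0.05, where no share of all genes was counted, there were 6. DESeq2 called 4, PER1, PER2, NR1D1 and NR1D2, beside 6.21% of the genes it tested. With the block 4 were called, beside 9.75% of all genes tested. PER1 was lower in 3D, at -0.92 ± 0.14 (log2, SE; adjusted p = 0.00118 with the block in edgeR, 0.0947 without) and PER2 at -0.87 ± 0.16 (adjusted p = 0.00430 and 0.0734). NR1D1 was lower in 3D, at -0.87 ± 0.22 (adjusted p = 0.0253 with and 0.0734 without) and NR1D2 at -0.89 ± 0.26 (adjusted p = 0.0475 and 0.135). DBP and TEF had log2 differences of -0.80 and -0.87 without the block and of -0.71 and -0.78 with it, and passed in neither fit. In the authors' deposited table none of the 10 was under 0.05 at this timepoint; the lowest adjusted p, that of NR1D1, lay just above it.

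Fits with the block were repeated without each library in turn and with all 18 libraries. At timepoint 2, 2 of the 10 genes were called without any single 2D library or without 3D replicate 1, 4 without 3D replicate 2 or 3, and 3 with all 18, beside 5.41 to 14.5% of all genes without 1 library and 15.7% with all 18. PER2 was among them in each of these fits. At timepoint 3 the count was 1 without 2D replicate 3, 2 without 2D replicate 2 or 3D replicate 1 or 3, 3 without 3D replicate 2 and 2 with all 18, beside 1.65 to 6.74% of all genes without 1 library and 5.81% with all 18. PER1 was among them in each.

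**Figure D4:**
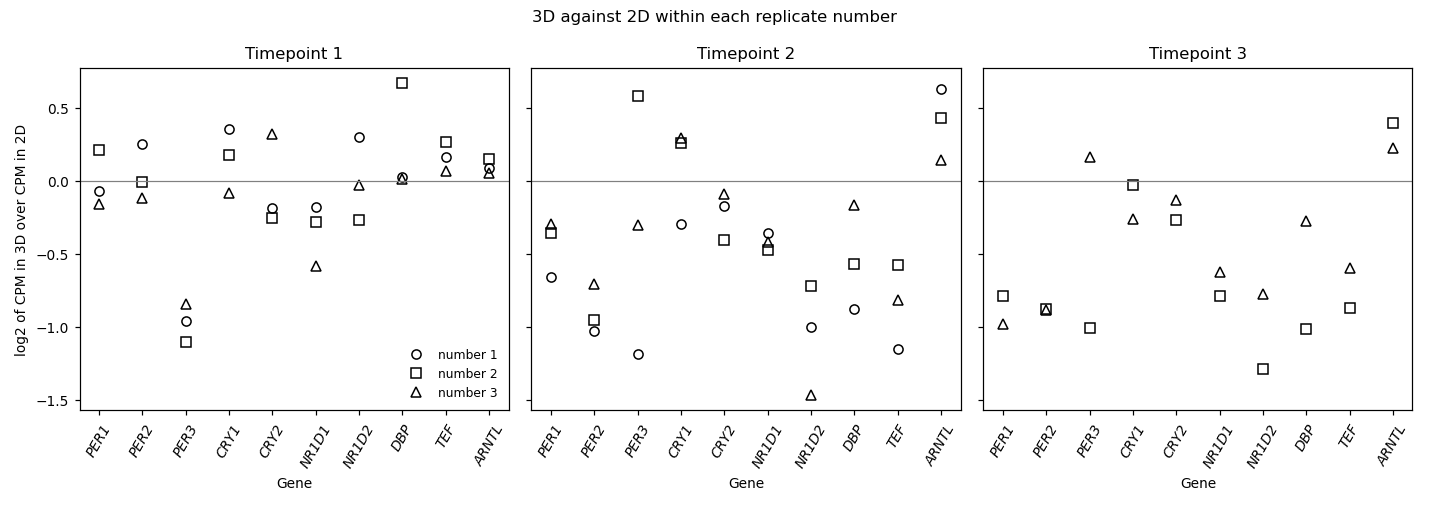
Log2 ratio of CPM in 3D over CPM in 2D (vertical axis) for each clock gene (horizontal axis) at timepoints 1, 2 and 3. Each symbol is 1 pair of libraries with the same replicate number, 3 pairs at timepoints 1 and 2 and 2 at timepoint 3. At timepoints 2 and 3 every pair lies below 0 for PER1, PER2, CRY2, NR1D1, NR1D2, DBP and TEF and above 0 for ARNTL. At timepoint 1 every pair lies below 0 for PER3 and NR1D1 and above 0 for DBP, TEF and ARNTL.

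Whether the change over time itself differed between cultures was tested as an interaction, the log2 change in 3D minus that in 2D. None of the 10 passed without the block in edgeR or in DESeq2, for timepoint 2 against timepoint 1 (beside 0% of all genes tested in edgeR and 0.255% in DESeq2) or for timepoint 3 against timepoint 1 (beside 0.183% and 0.87%). At an unadjusted p under 0.05 there were 3 at timepoint 2 (PER2, NR1D2 and TEF) and 5 at timepoint 3 (these 3 with PER1 and DBP). No share of all genes was counted at that threshold. Between timepoints 3 and 2, 0 passed in either edgeR fit, beside 0% of all genes tested. With the block, PER2 passed at timepoint 2, at -0.95 ± 0.20 (log2, SE; adjusted p = 0.0388 with and 0.526 without the block in edgeR), beside 1.31% of all genes. PER1 passed at timepoint 3, at -0.91 ± 0.18 (adjusted p = 0.0252 with and 0.520 without), and so did PER2, at -0.92 ± 0.21 (adjusted p = 0.0475 and 0.469), beside 1.56% of all genes. With all 18 libraries and the block, 0 passed at both timepoints, beside 0.16% of all genes at timepoint 2 and 0% at timepoint 3. Leaving out 1 library left 0 to 2 at timepoint 2, beside 0.19 to 3.9%. At timepoint 3 some of these fits hold 1 library of 2D. For TEF, DBP and NR1D2, the calls in 1 culture and not in the other are therefore not shown to differ between cultures.

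Of the other clock genes, 22 of 25 listed were tested. In 3D at timepoint 2 against timepoint 1, 0 rose and 6 fell, beside 15.1% of all genes tested (median -0.37, against 0.01 over all genes tested), and with the block 2 rose and 9 fell, beside 28.4%. Among them, USP2, a deubiquitinase that acts on clock proteins, changed by -2.47 ± 0.44 (log2, SE; adjusted p = 0.00174 in edgeR). WEE1, a cell cycle kinase under clock control, changed by -0.99 (adjusted p = 0.00547 in edgeR), and BHLHE40, an E-box repressor, by -0.96 (adjusted p = 0.0152 in edgeR). At timepoint 3 against timepoint 1 in 3D, NFIL3, a D-box repressor, rose (1.01, adjusted p = 0.0433 in edgeR) and 4 genes fell, among them USP2, BHLHE40 and NPAS2, beside 11% of all genes; with the block 2 rose and 7 fell, beside 23.9%. In 2D, 2 rose and 1 fell at timepoint 2, beside 5.87% of all genes (4 and 3 with the block, beside 13.7%). At timepoint 3 in 2D, 2 rose and 0 fell, beside 4.86%, and with the block 2 rose and 1 fell, NPAS2, beside 10.5%. HLF, of the family of DBP and TEF, had in 3D 14, 13 and 0 counts at timepoint 1, 7, 2 and 18 at timepoint 2 and 27, 19 and 10 at timepoint 3. In 2D it had 0 counts in all 3 libraries of timepoint 1, 41, 39 and 29 at timepoint 2 and 60 and 21 at timepoint 3, and it was called in 2D at both later times. NFIL3 rose in 2D at both times (1.18 and 1.34, adjusted p = 0.0309 and 0.0280 in edgeR), and TIMELESS fell at timepoint 2 (-0.63, adjusted p = 0.0332).

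Between cultures, USP2 alone of these 22 genes was called at timepoint 2, with 0.119, 0.156 and 0.253 CPM in 3D and 1.34, 1.63 and 1.08 CPM in 2D. The groups were apart, with a log2 difference of -2.94 ± 0.44 (adjusted p = 0.0113 in edgeR). This 1 call stands beside 1.49% of all genes tested, and with the block 2 genes were higher in 3D and 4 lower, beside 15.9%. At timepoint 3 edgeR called 0 of the 22 beside 1.5% of all genes. At an unadjusted p under 0.05, where no share of all genes was counted, there were 4, among them USP2 (lower in 3D) and TIPIN (higher). With the block, 1 was higher there, TIPIN, and 2 lower, among them USP2, beside 9.75%.

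Genes induced by glucocorticoids and immediate early genes induced by cAMP or growth factors were set beside PER1, since the medium held agents of both kinds. Of 13 glucocorticoid-induced genes, 1 was higher in 3D at timepoint 2 (MT2A, 1.29, adjusted p = 0.0248 in edgeR) and 2 lower (PDK4, -1.59, adjusted p = 0.0177, and TSC22D3, -0.90, adjusted p = 0.0320). At timepoint 3, 0 were higher and 1 lower, TSC22D3, at -1.02 (adjusted p = 0.0222 in edgeR). These counts stand beside 1.49% of all genes tested at timepoint 2 and 1.5% at timepoint 3. With the block, 2 were higher in 3D at timepoint 2, MT2A and ANGPTL4, and 7 lower, beside 15.9% of all genes. At timepoint 3, 0 were higher and 5 lower with it, ERRFI1, TSC22D3, ZBTB16, DUSP1 and PDK4, beside 9.75%. The median of the 13 without the block was -0.51 at timepoint 2 and -0.56 at timepoint 3. Of 18 immediate early genes, 0 were higher and 3 lower in 3D at timepoint 2, FOSB, ATF3 and NR4A2, and 0 were higher and 5 lower at timepoint 3, these 3 with FOS and NR4A1, beside the same shares of all genes. With the block, CREM was higher at both timepoints, and the lower genes were 4 at timepoint 2, with FOS added, and 5 at timepoint 3. ATF3 stood at -2.00 at timepoint 2 and -4.43 at timepoint 3 (adjusted p = 0.0130 and 3.79e-05 in edgeR), and FOSB at -2.21 and -3.26 (adjusted p = 0.0113 and 2.63e-04). The median of the 18 without the block was -0.25 at timepoint 2 and -0.44 at timepoint 3, against -0.42 and -0.83 for the 10 clock genes. Over time, 12 of the 18 fell and 2 rose in 3D at timepoint 2 against timepoint 1, beside 15.1% of all genes, and 7 fell and 0 rose in 2D, beside 5.87%. With the block the 3D counts were the same, and in 2D 9 fell and 3 rose, ATF3, NR4A2 and PDE4B, beside 13.7%. Without the block, at timepoint 3 against timepoint 1, 10 fell and 2 rose in 3D, beside 11% of all genes. In 2D, NR4A1, EGR3, EGR1 and DUSP5 fell and ATF3 and NR4A2 rose, beside 4.86%. The interaction there called ATF3, FOSB and FOS, each below 0, beside 0.183%. Of the 13 glucocorticoid-induced genes, 2 rose and 4 fell in 3D at timepoint 2, beside 15.1%. In 2D, 2 rose and 3 fell, beside 5.87%.

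Several members share their place with another gene, and the labels do not state which strand was counted, so reads of the pair may not be told apart. NR1D1 overlaps THRA, NR1D2 overlaps NKIRAS1, DBP overlaps SPHK2, PER3 overlaps UTS2 and PER1 overlaps AC129492.3, and CRY1, PER2 and PER3 overlap antisense RNAs. With the block, SPHK2, beside DBP, and THRA, beside NR1D1, were higher in 2D at timepoint 2 against timepoint 1, at 0.55 and 0.61 (adjusted p = 0.00981 and 0.0136 in edgeR, 0.0600 and 0.371 without the block). SPHK2 was higher in 2D at timepoint 3 against timepoint 1, at 0.77 (adjusted p = 0.0222 in edgeR), when DBP stood at 1.44. THRA stood at 0.73 in that comparison (adjusted p = 0.326 in edgeR, 0.0257 with the block), and NR1D1 at 1.29. Between cultures with the block, THRA was lower in 3D at timepoint 2, at -0.53 (adjusted p = 0.0269 in edgeR, 0.396 without the block), when NR1D1 stood at -0.42. At timepoint 3 it was lower in 3D at -0.62 (adjusted p = 0.0299 in edgeR, 0.312 without the block), when NR1D1 stood at -0.87. SPHK2 was also higher with the block in 3D at timepoint 3 against timepoint 1, at 0.37 (adjusted p = 0.0450 in edgeR, 0.166 without). NKIRAS1, beside NR1D2, stood at 0.52 in 3D at timepoint 3 against timepoint 1 (adjusted p = 0.285 in edgeR), while NR1D2 stood at -1.61.

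For each clock gene, the gene outside the 10 with the most similar pattern was the one with the highest Pearson r of log2 CPM over the 17 fitted libraries, among 13563 genes with a mean count of at least 50. The r values describe libraries that share 6 groups. It was SERPINB8 for ARNTL (r = 0.963), ANKRD13B for PER1 (r = 0.962), DSC2 for NR1D2 (r = 0.958), TRIM25 for PER2 (r = 0.946), PITX1 for TEF (r = 0.939) and CIAO3 for NR1D1 (r = 0.933). It was RAET1G for DBP (r = 0.900), REEP4 for CRY1 (r = 0.871), ENSG00000272822 for CRY2 (r = 0.856) and DUSP9 for PER3 (r = 0.823). Within the 10, DBP and TEF were closest to each other (r = 0.905).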

How the data were processed

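Poly-A RNA of MCF10A cells was sequenced in 18 libraries, 3 in each of 6 groups, taken with their replicate numbers from the sample titles. The submitters' processing notes name hg38, STAR 2.7.1a, HOMER, edgeR and limma, with no role or order; annotation release, strand setting and filters: not given in the sources used here. Counts per gene make up the deposited main table, not scaled by the authors, and gene coordinates are as it gives them. The deposited log2 CPM table, scaled by the authors, was used only for its header totals. The authors' deposited tables give log2 fold changes of 3D minus 2D, p-values and adjusted p-values, and scores (moderated statistics and log odds) that were not used, per the file headers.

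From the counts, edgeR 4.0.16 (R 4.3.3, limma 3.58.1) was run: filterByExpr with a minimum count of 10 (18592 genes), TMM, and the quasi-likelihood test with 1 term per group over 17 libraries, with Benjamini-Hochberg adjustment and a threshold of 0.05. The SE is the log2 fold change divided by the square root of F. Gene IDs were matched to current symbols for 60306 genes. Because the sums of counts exceed the header totals, no counting intervals are given.

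The labels tie each replicate number to 1 date in all groups, without saying what it marks, and the numbers were taken to pair the libraries by that date. Deviations from group means correlated at a mean of 0.209 between libraries of the same number (40 pairs, -0.041 to 0.514) and -0.104 between others (80 pairs). Since deviations within a group cancel out, the second value largely follows from the first and adds no separate evidence. The block is reported beside the fit without it. No 2 libraries held identical values.

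Alternatives were DESeq2 1.42.0, RLE scaling, no filter and a minimum count of 50, the compared groups alone, all 18 libraries, the block and leaving out each library; the block with all 18 libraries or without each library was added after seeing the data. The genes named outside the 10 are those called in the comparison described, at most 4 per list by smallest p; where a count of 5 or fewer is given, its members are named, apart from some genes that are not reported here. The 10 genes and the lists were chosen with earlier results of these data known, and the overlapping genes were listed after the files were seen.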

Additional observations from a re-analysis of the deposited data

Results flagged for a closer look

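The change over time differed between cultures for 2 of the 10 clock genes by the interaction test of edgeR with the replicate block, which called 1.31% of all genes at timepoint 2 and 1.56% at timepoint 3. PER2 at timepoint 2 against timepoint 1 had a log2 fold change in 3D minus that in 2D of -0.95 (adjusted p = 0.0388 with and 0.526 without the block). At timepoint 3 against timepoint 1 it was -0.92 (adjusted p = 0.0475 with and 0.469 without). PER1 at timepoint 3 against timepoint 1 had -0.91 (adjusted p = 0.0252 with and 0.520 without). With all 18 libraries and the block none of these passed, beside 0.16% of all genes at timepoint 2 and 0% at timepoint 3.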

How the results depend on the processing

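Of the clock genes' fold changes, 34 were called with or without the block, and none of these changed sign under any alternative run. Of the other 86, which were called in neither, 11 changed sign with the block, all of them at 0.132 or closer to 0 (log2) in both fits. Shares in brackets are of all genes called by the same fit. Calls at timepoint 1 between cultures and between timepoints 3 and 2 stayed at 0 of 10 in all alternatives run for them. For 3D against 2D at timepoint 2 (0 of 10), 2 were called in DESeq2 (8.91%) and without the filter (4.41%), 1 with the stricter filter (2.52%) and with the compared groups alone (4.83%), and 5 with the replicate block (15.9%); at timepoint 3 (0), 4 in DESeq2 (6.21%), 2 without the filter (4.62%) and 4 with the block (9.75%). In 3D at timepoint 2 against timepoint 1 (5), 3 were called without the filter (9.72%) and with all 18 libraries (14.2%) and 2 with the compared groups alone (6.83%); at timepoint 3 (2), 4 in DESeq2 (15.2%), 5 with the block (23.9%), and 1 with RLE scaling (11%), all 18 libraries (10.5%) or the compared groups alone (8.04%). In 2D at timepoint 2 (5), 3 were called with all 18 libraries (5.51%) or the compared groups alone (5.64%); at timepoint 3 (5), 2 with all 18 (5.29%). The interactions (0) gave 1 with the block at timepoint 2 (1.31%) and 2 at timepoint 3 (1.56%); DESeq2 gave 0 at both (0.255% and 0.87%). Leaving out 1 library gave 0 to 1 between cultures at timepoints 2 (0 to 1.16%) and 3 (0.18 to 1.7%), 3 to 5 (6.76 to 19.4%) and 1 to 2 (6.11 to 14.8%) in 3D at timepoints 2 and 3 against 1, 2 to 5 (3.36 to 4.43%) and 0 to 4 (1.01 to 4.66%) in 2D, and 0 for the interactions (0 to 0.169%). With the block kept, leaving out 1 library gave 2 to 4 between cultures at timepoint 2 (5.41 to 14.5%), 1 to 3 at timepoint 3 (1.65 to 6.74%) and 0 to 2 for each interaction (0.19 to 3.9% and 0.0772 to 1.8%); all 18 libraries gave 3 (15.7%), 2 (5.81%), 0 (0.16%) and 0 (0%). The causes were not tested. Depth could not be read from the sums of counts, so what depth limits was not assessed. 2D timepoint 3 rests on 2 libraries. In the main edgeR settings, the calls between cultures rest on the pairing by number. Without that pairing, some were made by DESeq2 and by edgeR without the filter, with the stricter filter or with the compared groups alone. So did some fits that left out 1 library.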
